A study of Arabidopsis thaliana with 6 samples.

Results

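The genes described here are HTB1, HTB2, HTB4 and HTB11, which code for the core histone H2B, and HON4, a gene of the linker histone family whose reference entry carries the synonym histone H1. They were chosen as the probe sets paired with exactly 1 of these 5 genes, and each gene had 1 such probe set, out of 13356 genes with a probe set of their own in the annotation used here. The study asked how far protoplasting and passage through a cell sorter bear on transcripts that respond to iron deficiency, and these histone genes are read from the same arrays. One set of 3 arrays came from root cells of Arabidopsis thaliana that were freed of their walls and run through a fluorescence-activated sorter, from which every cell was kept, and it was set against intact whole roots (3 arrays). All 6 samples were of the Columbia ecotype, 6 days after germination, and all had spent 24 hours on medium with 0.3 mM of the iron chelator ferrozine and no added iron, so the comparison is made within iron-deficient roots and says nothing about iron supply itself. The labels do not say whether replicates came from separate cultures, and p-values therefore rest on the scatter of these samples alone, part of which may be technical.

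In the nucleosome, DNA is wrapped around a core in which H2A pairs with H2B and H3 pairs with H4, and a linker histone of the H1 family binds where DNA enters and leaves. Core histone genes are known above all for expression in the phase of the cell cycle in which DNA is copied, and in roots such cells lie mostly in the meristem at the tip. Plant histone messages carry a poly(A) tail, so they can be copied by the oligo(dT) priming on which this kind of array labelling relies. H2B can also carry a ubiquitin, which marks transcribed genes and is put on and taken off by separate enzymes.

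Each array gave MAS5 signal intensities, used as deposited. With 3 arrays a group, precision is limited by that number. Arrays of a group correlated at 0.876 to 0.948 in sorted cells and 0.966 to 0.974 in whole roots (Pearson's r of log2 intensity, taken across 13647 probe sets that do not count as independent replicates). The SD of log2 intensity among replicates had a median of 0.37 in sorted cells and 0.18 in whole roots. Control transcripts that are added to every hybridisation mix, and so read the scaling of an array and not the plant, were brighter on every sorted-cell array for all 18 of their probe sets. Their mean stood 2.33, 1.62 and 0.89 above the whole-root mean on sorted-cell replicates 1, 2 and 3 (log2). The log2 ratio of 3′ over 5′ probe sets, a reading of RNA and labelling integrity, averaged 4.33 in sorted cells and 1.69 in whole roots for actin, 1.69 and 0.49 for GAPDH, and 2.60 and 1.86 for ubiquitin, with sorted-cell replicate 1 highest each time and no overlap between groups (exact two-sided permutation p = 0.1 for each, the smallest that 3 against 3 allows). A part of these readings in the histone differences was not tested, except where values are given with another scaling or without an array.

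All 4 H2B genes rose in sorted cells on the deposited scale, by 2.63-fold to 4.54-fold, whereas HTB1 and HTB11 changed sign when the arrays were scaled to the hybridisation controls and none of the 4 then passed. HON4 did not pass on the deposited scale. By limma, 4 of 5 genes were called higher and 0 lower (unadjusted p under 0.05 gave the same counts), against a background of 24.7% of tested probe sets called higher, 30.7% called lower and 55.4% called in either direction. For those 4 genes every sorted-cell array lay above every whole-root array, which held for 28.8% of tested probe sets. In bulk RNA more cells of a type and more RNA per cell cannot be told apart.

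HTB4, a core H2B gene, read 1752, 2014 and 2052 on the 3 sorted-cell arrays, against 641, 618 and 569 on the 3 whole-root arrays. All sorted-cell readings lay close together and far from those of whole roots. It averaged 1939 ± 163 in sorted cells and 609 ± 36.6 in whole roots (SD, n = 3 each), a log2 difference of 1.67 (SE 0.18, 95% interval 1.25 to 2.09; limma adjusted p = 0.000123). This was the smallest standard error among the 5 genes.

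HTB11, another H2B gene, read 691, 963 and 711 in sorted cells, against 251, 283 and 255 in whole roots. The groups did not overlap, and sorted-cell replicate 2 stood above the other two. Its means were 788 ± 152 in sorted cells and 263 ± 17.3 in whole roots (SD, n = 3 each), with a log2 difference of 1.57 (SE 0.21, 95% interval 1.1006 to 2.0363; limma adjusted p = 0.000301).

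HTB1 read 445, 690 and 426 in sorted cells, against 183, 195 and 202 in whole roots. Sorted-cell replicate 2 was again the brightest, and the lowest sorted-cell reading still lay above all whole-root readings. The log2 difference was 1.39 (SE 0.23, 95% interval 0.87 to 1.92; limma adjusted p = 0.00101), the smallest of the 4 H2B genes.

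HTB2 read 184, 428 and 221 in sorted cells, against 60.3, 71.5 and 43.0 in whole roots. It had the largest difference of the 4 H2B genes as deposited and also the widest spread, 0.64 among sorted cells and 0.37 among whole roots (SD of log2 intensity). The log2 difference was 2.18 (SE 0.34, 95% interval 1.41 to 2.96; limma adjusted p = 0.00078). Its whole-root intensities were low, of about the size of the larger offset, 64. With 64 added to each intensity, its log2 difference was 1.42, below the 1.57 of HTB4, and it still passed. With 16 added it was 1.91, above the 1.64 of HTB4.

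HON4 read 242, 396 and 294 in sorted cells, against 326, 323 and 354 in whole roots. The groups overlapped: 2 sorted-cell arrays lay below all whole-root arrays and replicate 2 above them. HON4 averaged 311 ± 78.4 in sorted cells and 334 ± 17.0 in whole roots (SD, n = 3 each), a log2 difference of -0.13 that did not pass (SE 0.22, 95% interval -0.64 to 0.37; limma adjusted p = 0.634). That interval leaves room for a fall or a rise of smaller size than the differences of the H2B genes. Its estimate was 0.044 after quantile normalization and 0.032 without sorted-cell replicate 1, so its sign is not settled, and scaling to the hybridisation controls gave -1.75, which passed (limma adjusted p = 0.00282, the lowest over the alternatives, whose highest was 0.893).

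**Figure D1:**
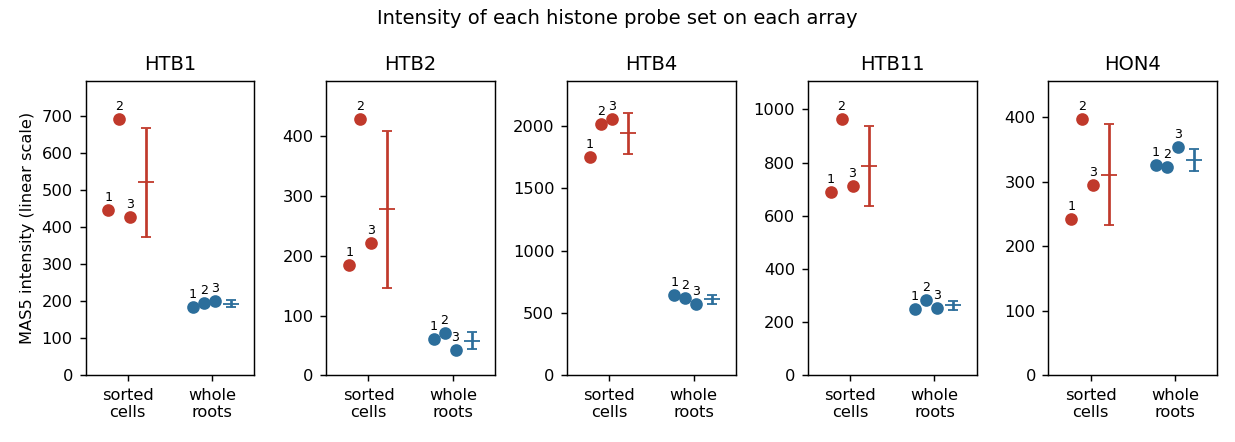
MAS5 intensity (linear scale, starting at 0) of the 5 genes, with 1 point per array numbered by replicate, sorted cells left of whole roots, and the mean with its SD beside the points. For HTB1, HTB2, HTB4 and HTB11 the 3 sorted-cell arrays lie above the 3 whole-root arrays on the deposited scale (the direction of HTB1 and HTB11 turns with scaling to hybridisation controls), while the groups of HON4 overlap.

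The level of the arrays as a whole matters for these values. The median log2 difference of all 13647 tested probe sets was -0.16 as deposited and -1.78 with scaling to the hybridisation controls, an alternative chosen after seeing the data. Relative to that median, HTB2 stood 2.35 higher, HTB4 1.83, HTB11 1.73, HTB1 1.56 and HON4 0.029. These distances are the same under either scaling by construction, since control scaling lowers every difference and the median by one amount. The sorted-cell arrays themselves are lowered by unlike amounts, so the spread that enters the test changes too. With control scaling the differences themselves were 0.57 for HTB2, 0.054 for HTB4, -0.046 for HTB11 and -0.22 for HTB1, and none of these passed (limma adjusted p = 0.271, 0.936, 0.946 and 0.721). Among called probe sets 44.6% were higher in sorted cells as deposited and 5.47% with control scaling. The differences of the H2B genes stood above those of most tested probe sets, with 6.13% at or above that of HTB2 and 12.9% at or above that of HTB1. Whether these genes were called depended on the scaling, and neither scaling reads the absolute amount of a transcript in the plant.

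**Figure D2:**
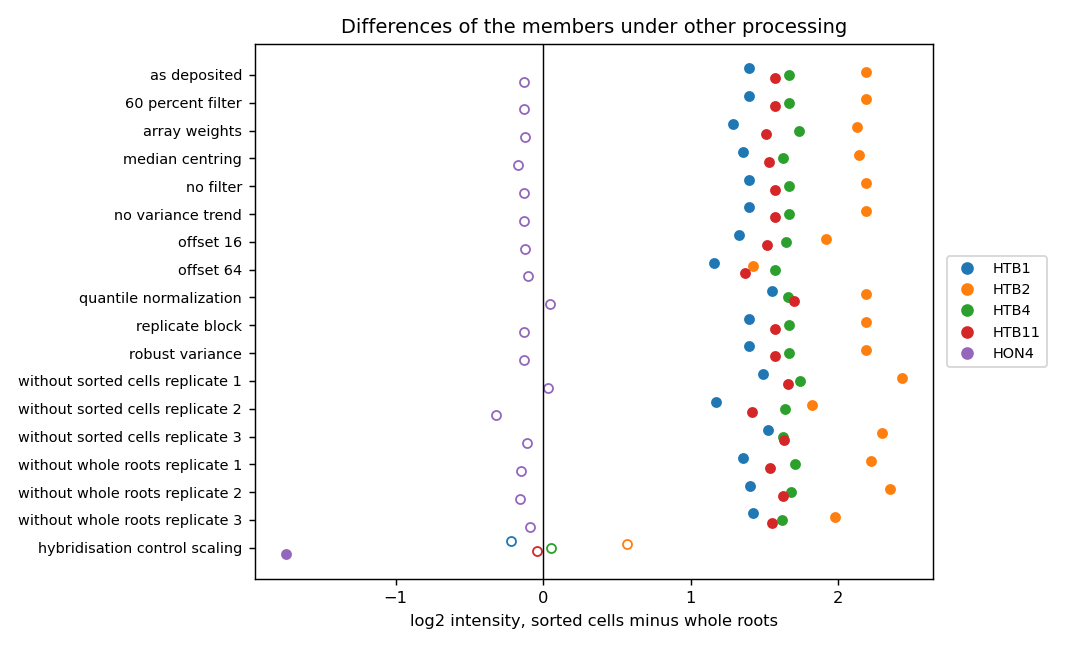
Log2 difference, sorted cells minus whole roots, of the 5 genes (colours) as deposited and under each alternative, with filled points where the limma adjusted p was under 0.05 and open points where it was not. The H2B genes stay between 1.16 and 2.43 in every setting but the last, scaling to hybridisation controls, where they lie at -0.22 to 0.57 and HON4 at -1.75.

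Ratios between members on the same array do not depend on how an array is scaled. The log2 ratio of each H2B gene over HON4 was higher on every sorted-cell array than on any whole-root array. That of HTB4 over HON4 was 2.85, 2.35 and 2.80 in sorted cells, against 0.98, 0.94 and 0.69 in whole roots. Against HON4 the change in the ratio was 1.53 ± 0.11 for HTB1, 1.70 ± 0.11 for HTB11, 1.80 ± 0.19 for HTB4 and 2.32 ± 0.31 for HTB2 (± SE, n = 3 each), with no overlap between groups in any of the 4 ratios. Each had an exact two-sided permutation p of 0.1, which is the smallest that 3 against 3 allows, and 0.167 adjusted over the 10 pairs of members, so the threshold could not be reached.

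Among the H2B genes themselves the change was less unequal. HTB1 over HTB2 changed by -0.79 ± 0.29 and HTB2 over HTB11 by 0.62 ± 0.29 without overlap (± SE; exact two-sided permutation p = 0.1, adjusted 0.167), but with 64 added to every intensity these became -0.27 and 0.054. The groups overlapped for the other 4 H2B pairs. HTB4 over HTB11 changed least, by 0.10 ± 0.15 (exact two-sided permutation p = 0.7), HTB1 over HTB11 by -0.17 ± 0.094 and HTB1 over HTB4 by -0.27 ± 0.23. For HTB2 over HTB4 the change was 0.52 ± 0.38, and -0.15 with 64 added. These genes code for similar proteins, and probe sets of close copies may share signal; the probe sequences were not used here.

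**Figure D3:**
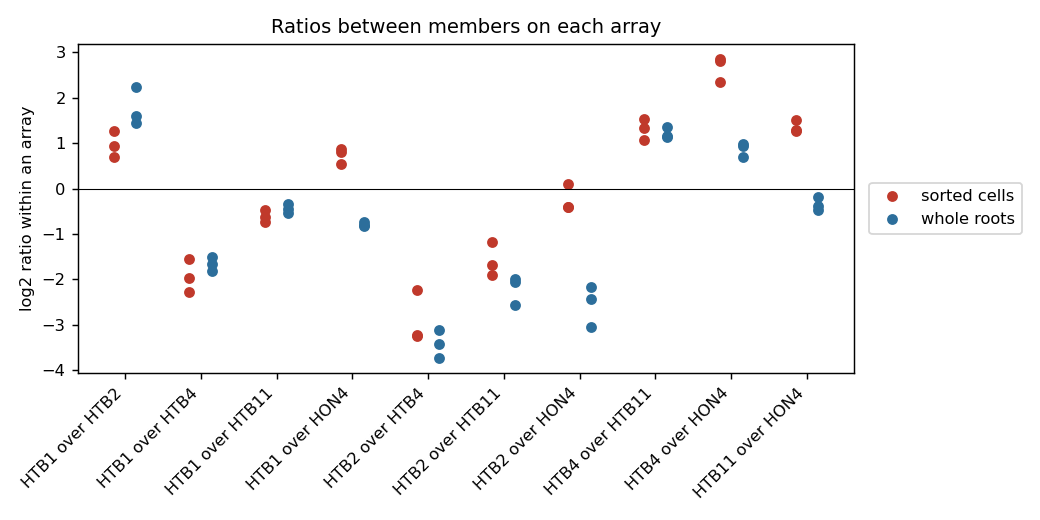
Log2 ratio of 2 members' intensities within an array, for all 10 pairs, with 3 sorted-cell arrays left of 3 whole-root arrays. The shift between the colours is what can be read, not the height of a pair, since probe sets differ in brightness. All 4 ratios over HON4 shift upward in sorted cells without overlap for HTB1, HTB2, HTB4 and HTB11.

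On the deposited scale the sorted-cell arrays differed among themselves in a way that most of these genes shared. Sorted-cell replicate 2 was the brightest for 4 of 5 members, with HTB4 the exception, whereas it was the brightest of the sorted-cell arrays for 34.0% of all tested probe sets. The mean of the 4 H2B genes stood 1.45, 2.09 and 1.57 above the whole-root mean on sorted-cell replicates 1, 2 and 3 (log2), while the median of all tested probe sets stood at -0.18, -0.084 and -0.16. Sorted-cell replicate 1 was the dimmest for 4 of 5 members and for 38.7% of tested probe sets. Control scaling lowers sorted-cell replicates 1, 2 and 3 by unlike amounts (2.33, 1.62 and 0.89, log2). The order of the arrays is therefore given for the deposited scale only. The hybridisation controls and the 3′ over 5′ ratios were highest on replicate 1 and lowest on replicate 3 among sorted cells, and their part in the pattern was not tested. Without replicate 2 the differences were 1.17 for HTB1, 1.82 for HTB2, 1.64 for HTB4 and 1.42 for HTB11, and without replicate 1 they were 1.49, 2.43, 1.74 and 1.66, all still passing.

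**Figure D4:**
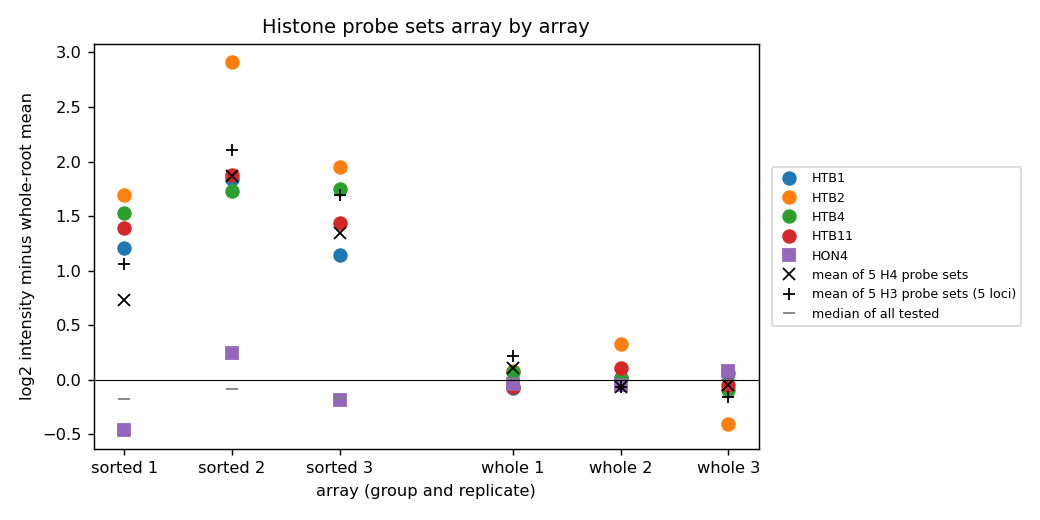
Log2 intensity on each array minus the whole-root mean, for the 5 genes, the mean of 5 H4 probe sets, the mean of 5 H3 probe sets and the median of all tested probe sets, with sorted-cell arrays left of whole-root arrays. As deposited, the H2B genes lie between 1.14 and 2.91 on the sorted-cell arrays and HON4 between -0.46 and 0.25. The H3 and H4 means peak on replicate 2 on that scale. Control scaling lowers sorted-cell replicates 1, 2 and 3 by unlike amounts, 2.33, 1.62 and 0.89 relative to the whole-root mean. The order of the arrays shown is therefore that of the deposited scale.

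The rest of the H2B family was read from 7 further loci entered by locus number, most of which have no symbol in the tables used here; that they belong to H2B rests on general knowledge of the family. Of these 5 had a probe set of their own and 2 were tested, and both tested loci were called higher on the deposited scale. With control scaling their differences were smaller but still positive, at 0.71 and 0.78, and did not pass. AT2G37470 read 398, 464 and 310 in sorted cells, against 74.7, 85.3 and 72.1 in whole roots (log2 difference 2.32, SE 0.22; limma adjusted p = 5.4e-05). AT3G09480 read 165, 149 and 107, against 34.5, 25.9 and 20.3 in whole roots (log2 difference 2.39, SE 0.34; limma adjusted p = 0.000432). The tested H2B genes thus numbered 6 with these, and all 6 were called higher as deposited, with a median log2 difference of 1.93 beside -0.16 for all tested probe sets.

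The other H2B loci were too dim for the test. AT2G28720 read 46.7, 111 and 55.3 in sorted cells, against 33.9, 29.7 and 36.3 in whole roots, without overlap. Only 2 of its 3 sorted-cell readings exceeded the level set on each array by the brightest of 27 bacterial-gene controls. AT5G02570 read 36.4, 68.0 and 24.2 in sorted cells, against 12.8, 1.5017 and 1.488 in whole roots, where it exceeded that level on no array. AT1G08170 read 46.2, 6.12 and 8.95 in sorted cells, of which none was above that level, against 2.85, 19.4 and 11.2 in whole roots.

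H4, the partner of H3 in the nucleosome core, was read by 5 probe sets that are each paired with the same 8 loci, HIS4 among them, so no value belongs to a single gene. On the deposited scale 4 of 5 were called higher, the median log2 difference of the 5 was 1.12, and the remaining 1 did not pass, while the called ones stood between -0.53 and 0.70 and did not pass with control scaling. The brightest read 4751, 7960 and 4910 in sorted cells, against 2765, 2683 and 2632 in whole roots (log2 difference 1.08, SE 0.23; limma adjusted p = 0.00364). The probe set with the largest difference read 134, 497 and 319, against 56.8, 56.7 and 53.6 in whole roots (2.31, SE 0.42; limma adjusted p = 0.00156). The 1 that did not pass read 168, 511 and 432 in sorted cells, against 271, 159 and 202 in whole roots (0.70, SE 0.40; limma adjusted p = 0.166), and it passed when sorted-cell replicate 1 was left out (1.19) or arrays were weighted by quality (1.07). On the deposited scale all 5 were brightest on sorted-cell replicate 2 and dimmest on replicate 1.

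For H3 a set of 5 loci shares 5 probe sets and another set of 3 loci shares 3; these too were placed in H3 by locus number. All 5 probe sets of the first set were called higher on the deposited scale, with a median of 1.83, and none passed with control scaling (-1.05 to 0.56). Its largest difference was 2.17 (SE 0.29; limma adjusted p = 0.000349), from a probe set that read 164, 353 and 229 in sorted cells, against 51.7, 57.2 and 49.2 in whole roots. The smallest, 0.56, came from a probe set that read 303, 336 and 423, against 262, 214 and 240 in whole roots (SE 0.21; limma adjusted p = 0.0441), and its call ended under 9 of the 16 alternatives other than control scaling, each array left out except sorted-cell replicate 1 among them.

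Of the 3 probe sets for the other H3 loci, 2 were called higher and 1 did not pass on the deposited scale, and the called pair turned to -0.30 and -0.48 with control scaling. They read 4857, 5804 and 3950 in sorted cells, against 1946, 1906 and 1952 in whole roots (log2 difference 1.31, SE 0.20; limma adjusted p = 0.000605), and 2516, 3492 and 2804, against 1039, 1470 and 1513 (1.14, SE 0.23; limma adjusted p = 0.00261). The third read 884, 1705 and 1313 in sorted cells, against 1291, 1711 and 1642 in whole roots (-0.29, SE 0.27; limma adjusted p = 0.371, and -1.91 with control scaling, which passed as lower), so probe sets paired with the same loci disagreed. The centromeric H3 gene HTR12 was too dim for the test, at 21.6, 57.3 and 27.6 in sorted cells and 21.7, 27.6 and 19.6 in whole roots. The other 3 H3 genes with a probe set of their own, among them MGH3, and 1 probe set shared by 2 H3 loci were not above the bacterial level on any sorted-cell array. None of the 13 H2A genes listed had a probe set of its own in the annotation used here.

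HON4 can be set beside other linker histones. Of 11 listed linker histone and high mobility group genes 3 had a probe set and 2 were tested, both placed in H1 by locus number, and 1 of 2 was called higher as deposited while both turned negative with control scaling (-1.06 and -1.13). AT1G06760 read 1420, 2197 and 1695 in sorted cells, against 1159, 1164 and 1228 in whole roots (log2 difference 0.56, SE 0.21; limma adjusted p = 0.0493). That call ended under 11 of the 16 other alternatives, each array left out except sorted-cell replicate 1 among them (limma adjusted p from 0.00624 to 0.143). AT2G30620 read 960, 1849 and 1235 in sorted cells, against 864, 914 and 1017 in whole roots, and did not pass (0.48, SE 0.26; limma adjusted p = 0.137); it passed without sorted-cell replicate 1 (0.70). HIS1-3, an H1 gene known for induction by drought, was too dim to be tested, at 54.3, 32.8 and 25.8 in sorted cells and 36.8, 38.6 and 68.0 in whole roots.

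**Figure D5:**
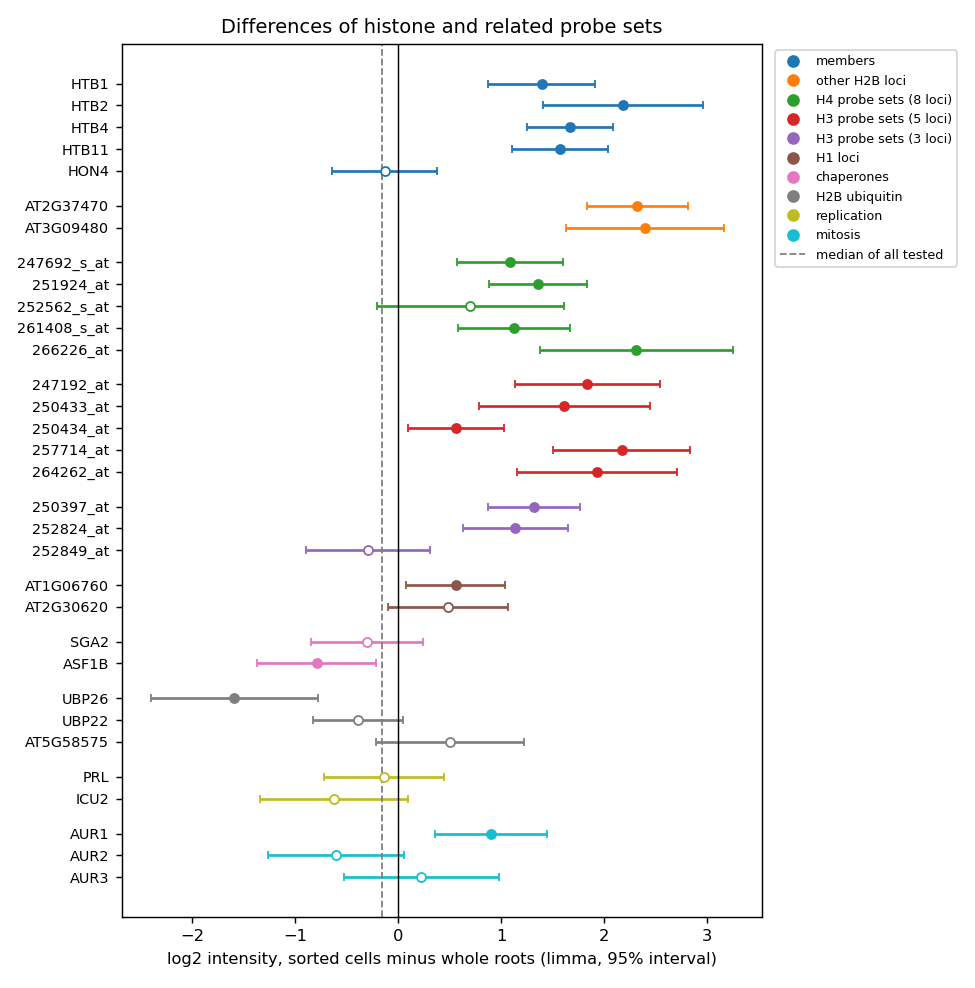
Log2 difference, sorted cells minus whole roots, with its 95% interval from limma, of every tested histone probe set and of the chaperone, H2B ubiquitin, replication and mitosis genes, with filled points where the adjusted p was under 0.05; the dashed line is the median of all tested probe sets, -0.16. The 6 tested H2B genes lie at 1.39 to 2.39 and HON4 at -0.13 as deposited. Scaling to the hybridisation controls moves every point by the same amount to the left. It also lowers the sorted-cell arrays by unlike amounts, so the spread among them changes too. No core histone probe set then passes above 0.

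Few of the genes that handle histones or copy DNA had a probe set of their own in the annotation used here, and of those tested none was called higher. Of 13 histone chaperone genes 2 were tested: ASF1B, a chaperone of H3 and H4, fell (log2 difference -0.79, SE 0.26; limma adjusted p = 0.0264), and SGA2, also known as ASF1A, did not pass as deposited (-0.30, SE 0.24; limma adjusted p = 0.307) but was called lower with control scaling (-1.92). ASF1B read 283, 491 and 412 in sorted cells, against 706, 544 and 775 in whole roots. Its call ended without whole-root replicate 1 or 3, without sorted-cell replicate 3 and with quantile normalization (limma adjusted p from 0.0142 to 0.105 over the alternatives other than control scaling). Of 20 DNA replication genes 2 were tested and limma called 0 as deposited, also at an unadjusted p under 0.05, while both were called lower with control scaling. PRL, a subunit of the helicase that opens DNA for copying, read 222, 408 and 294 in sorted cells, against 377, 336 and 277 in whole roots (-0.14, SE 0.26), and ICU2, the catalytic subunit of DNA polymerase alpha, read 59.3, 51.7 and 47.2, against 99.9, 92.3 and 57.6 (-0.62, SE 0.32).

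Of 8 genes for H2B ubiquitin 3 were tested. UBP26, a protease that takes ubiquitin off H2B, fell to 25.1, 43.4 and 50.9 in sorted cells, against 151, 96.2 and 104 in whole roots (log2 difference -1.59, SE 0.36; limma adjusted p = 0.00498). It exceeded the bacterial level on 2 of the 3 sorted-cell arrays. UBP22, another such protease, stood at -0.39 (SE 0.19; limma adjusted p = 0.116) and AT5G58575 at 0.50 (SE 0.32; limma adjusted p = 0.206), and neither passed as deposited. With control scaling both passed as lower, at -2.003 for UBP22 and -1.11 for AT5G58575.

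The mitosis list served as the marker list of dividing cells, in which 3 of 17 genes, all for Aurora kinases, had a probe set of their own in the annotation used here and were tested. Their summed intensity was 468 to 899 in sorted cells and 498 to 659 in whole roots, so the groups overlapped. AUR1 was called higher as deposited and stood at -0.71 with control scaling: it read 394, 467 and 266 in sorted cells, against 218, 190 and 182 in whole roots (log2 difference 0.90, SE 0.24; limma adjusted p = 0.0117). AUR2 (-0.60, SE 0.29) and AUR3 (0.22, SE 0.33) did not pass as deposited (limma adjusted p = 0.106 and 0.591), and both passed as lower with control scaling (-2.22 and -1.39). Whether a different share of dividing cells went with the H2B values was not tested, and 3 genes are a thin basis for it.

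Markers of other root cells moved as well, where 55.4% of all tested probe sets were called in either direction as deposited. The 2 root hair genes with a probe set, of 4 listed, summed to 299 to 471 in sorted cells and 2477 to 3172 in whole roots, and the 2 ground tissue genes, of 4, to 19.5 to 90.7 and 381 to 430. The single root cap gene, of 3 listed, read 3069 to 6875 in sorted cells and 187 to 222 in whole roots. LHW of the stele, 1 of 2 listed, read 258 to 416 and 469 to 657, GSO1 of the endodermis, 1 of 3, 447 to 776 and 897 to 957, and the 2 green tissue genes, of 5, summed to 68.2 to 141 and 503 to 569. The 2 ground tissue genes and the 2 green tissue genes each exceeded the bacterial level on only 2 of the 3 sorted-cell arrays. The part of cell composition in the histone values was not tested.

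By profile over the 6 arrays, centred on its own mean, the tested gene most like the mean of the H2B members was AT4G12340, at a root mean square distance of 0.098 on the log2 scale, followed by AT4G31930 (0.10), AT2G20820 (0.11), PRA1.B6 (0.11) and AT3G47370 (0.13), among 7336 probe sets with 1 gene. HTB11 lay at 0.091 from that mean, of which it is a part, and HTB2, the farthest H2B member, at 0.33. Of the other list genes with a probe set of their own, the H2B locus AT2G37470 was nearest, at 0.34 and rank 374. Probe sets of several loci, which were not ranked, included nearer ones, the nearest being an H4 probe set at 0.19 and an H3 probe set at 0.25. HON4 lay at 0.93.

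The H2B members differ in where they sit relative to other core histone loci, in the order of protein-coding genes of the TAIR10.1 assembly. HTB1 has 2 genes between itself and AT1G07820, HTB4 has 4 between itself and HTA6, an H2A gene, and 5 between itself and AT5G59970, and HTB11 has 4 between itself and HTB9. AT1G07820 and AT5G59970 are among the 8 loci of the H4 probe sets. HTB2 stands alone, with 484 genes between itself and the nearest listed core histone locus, HTA7, and HON4 has 295 between itself and HTA13. HTB2 had the largest difference of the 4 H2B members as deposited and with 16 added before the log, but not with 64 added. The further H2B loci AT2G37470 and AT3G09480 stood higher as deposited, at 2.32 and 2.39. Whether position goes with the size of a difference was not tested.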

How the data were processed

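Per the labels' protocols, RNA of all 6 samples was extracted with a micro-scale column kit and amplified in 2 cycles before biotin labelling. Per the submitters' processing notes the deposited values are MAS5 signal intensities on a linear scale. The sources used here give neither version nor scaling target nor detection calls. The mean after trimming 2% at each end was 250.02 or 250.03 on every array, so values were used as deposited. Probe sets were named through the platform annotation, with symbols updated to the TAIR10.1 gene table: 13513 of 22810 pair with 1 gene, 13436 of them matched, 503 pair with several and 8730 are unlisted.

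The 64 controls and, of the rest, the dimmest 40% by mean intensity were left out. For 13647 probe sets log2 intensity was compared, sorted cells minus whole roots, in limma 3.58.1 under R 4.3.3 (eBayes with a variance trend), calling Benjamini-Hochberg adjusted p under 0.05, and the code was tested on simulated data. Pairs of members were compared by exact permutation (Python 3.11.15, scipy 1.17.1). Genes named were the members, up to 4 called and up to 2 other members of each list, and the 5 most similar profiles; list genes too dim to be tested were named after their values were seen. Alternatives varied the filter, offset, normalization, variance model, replicate block and arrays left out. Genes and lists were chosen with earlier results of these data known. The H4 and H3 probe sets paired with several loci were added after the annotation was read. No sequences are printed.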

Additional observations from a re-analysis of the deposited data

How the results depend on the processing

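The 4 H2B genes kept their direction and their call under the 16 alternatives of filter, offset, normalization, model and left-out array, between 1.16 and 2.43 on the log2 scale, and HON4 did not pass under any of these. Scaling to the hybridisation controls, added after seeing the data, left 0 of 5 members called higher and 1 lower, with HTB1 at -0.22, HTB2 at 0.57, HTB4 at 0.054, HTB11 at -0.046 and HON4 at -1.75. By construction that setting lowers every difference by one amount. It also lowers the sorted-cell arrays by unlike amounts (2.33, 1.62 and 0.89 on replicates 1, 2 and 3), so the spread that enters the test changes too. It called 10198 probe sets, against 7564 as deposited, 0 higher among the other H2B, H4, H3, H1 and mitosis sets, and 1 H3, 2 chaperone, 3 ubiquitin, 2 replication and 2 mitosis probe sets lower. The signs turned for AT1G06760 (-1.06), AT2G30620 (-1.13), AT5G58575 (-1.11), AUR1 (-0.71), AUR3 (-1.39), 4 H4 probe sets (-0.53, -0.26, -0.91 and -0.49) and 4 H3 probe sets (-0.30, -0.0010, -1.05 and -0.48). Leaving out the dimmest 60% tested fewer genes, and called 1 other H2B locus and 3 of the H3 probe sets with 5 loci higher and 0 ubiquitin genes lower. Quantile normalization turned HON4 to 0.044, gave a difference of PRL of 0.035 and called 0 chaperones lower. Of the H1 list 2 were called higher with array quality weights and 0 with quantile normalization, median centring, no filter, no variance trend, robust variance or the replicate block; array weights also called 1 mitosis gene lower and put AUR3 at -0.099. With 64 added, HTB2 over HTB4 stood at -0.15. Leaving out 1 array gave -0.32 to 0.032 for HON4, -0.36 to 0.079 for PRL, -0.077 to 0.58 for AUR3, -0.0085 to 0.22 for HTB4 over HTB11, 0 to 2 called in the H1 list, and 0 to 1 called lower in the chaperone and mitosis lists. The cause of these changes was not tested. The replicate numbers were not taken to pair arrays, since same-numbered arrays deviated from their group means with correlations of -0.289, -0.156 and -0.0424. The replicate block called 6815 probe sets, and among the calls named here it ended that on the difference of AT1G06760 (limma adjusted p = 0.0923), that of the H3 probe set with the smallest called difference (0.56), and no other. Depth has no direct reading on these arrays, and probe sets near the bacterial level have imprecise differences.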
